A study of Homo sapiens with 4 samples.

Results

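Granins are acidic proteins that are packed into the dense-core granules of neuroendocrine cells, and the prohormone processing enzymes cut granule proteins and peptide precursors into their active forms. The 10 genes described here were taken by symbol from the 19734 gene rows of the expression table: the chromogranins CHGA and CHGB, the secretogranins SCG2 and SCG3, SCG5, VGF, the convertase PCSK1, its inhibitor PCSK1N, the convertase PCSK2 and the carboxypeptidase CPE. They were selected on their levels in these same 4 libraries, with earlier results known, so the levels and fold changes below are a description and carry no test. Human BE(2)C:MYCN-ORF neuroblastoma cells, a line that carries an added MYCN open reading frame in all 4 groups, were transfected with an siRNA and a miRNA mimic and harvested 48 hours later. The groups were siMYCN/let-7a, siMYCN/miRCon, siCon/let-7a and siCon/miRCon, where siMYCN is directed at MYCN, siCon and miRCon are the control siRNA and control mimic, and let-7a is a mimic of that miRNA. Each group was 1 polyA RNA library, and with no replicate to set a difference against, no p-value is given.

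Within the granule, granins bind calcium and catecholamines and help to sort cargo, and several are themselves precursors of secreted peptides. The convertases cut precursors after pairs of basic residues, CPE then trims the basic residues from the new ends, and SCG5 and PCSK1N encode small partner proteins that assist PCSK2 and inhibit PCSK1. Sympathetic neuroblastoma cells store noradrenaline with granins, and CHGA is a long-used marker of neuroendocrine tumours. Let-7a is a differentiation-associated miRNA that lowers mRNAs bearing matches to its seed.

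The mature sequence of the mimicked miRNA, from RefSeq on GRCh38.p14, is shown because the seed defines which messages it can pair with. It is written 5′ to 3′ with the seed, bases 2 to 8, in capitals.
hsa-let-7a-5p: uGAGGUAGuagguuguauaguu
In the longest 3′ UTR of each gene in GENCODE 29, none of the 10 genes held a match of 7 or 8 bases to this seed (0 of 10), and none held its core of 6 bases. Among tested genes with a 3′ UTR, 19.0% held such a match of 7 or 8 bases. That share was not matched for UTR length, so nothing is read from the absence. Many of the UTRs were short, with 166 bases in PCSK1N, 312 in CHGB and 409 in CHGA, and the longest was 2586 in PCSK1. The promoter sequences below were chosen because CHGA, VGF and PCSK1 each carried the cAMP response element TGACGTCA, the palindrome bound by CREB, in the 300 bases around a start site. That element was in 1.85% of 35116 RefSeq promoter windows of the same length. The stretches run 5′ to 3′ over the 120 bases before the RefSeq start on GRCh38.p14, with the element in capitals.
CHGA: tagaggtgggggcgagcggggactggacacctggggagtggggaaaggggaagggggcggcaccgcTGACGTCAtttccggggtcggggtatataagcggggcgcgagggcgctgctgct
VGF: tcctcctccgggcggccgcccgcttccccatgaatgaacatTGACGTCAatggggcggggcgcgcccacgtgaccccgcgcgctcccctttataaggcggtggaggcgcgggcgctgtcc
PCSK1: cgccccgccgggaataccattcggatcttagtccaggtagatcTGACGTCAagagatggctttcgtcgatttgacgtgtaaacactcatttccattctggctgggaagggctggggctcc
The CHGA stretch is chr14:92923030-92923149 on the plus strand, the VGF stretch chr7:101165570-101165689 on the minus strand and the PCSK1 stretch chr5:96433249-96433368 on the minus strand. The element began at base -54 in CHGA, -79 in VGF and -77 in PCSK1. The VGF window also held the E-box CACGTG, the palindrome bound by MYC and MAX, at base -54, a word in 7.26% of windows. The windows of SCG3, SCG5, PCSK1N, PCSK2 and CPE held neither word, and PCSK1 and PCSK2 each had a further start site whose window held neither. The shorter word TGACG, a part of TGACGTCA, was in 24.6% of windows on either strand. Windows of SCG3, SCG5, PCSK2 and CPE held that shorter word, and the PCSK1N window did not. CHGB and SCG2 were not matched in the promoter table, so 8 of the 10 genes were. The 3 genes with the element did not share a pattern of levels, as described next.

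With both treatments, the granins CHGB, CHGA and SCG5 stood above what the single treatments would give if their fold changes multiplied. All values below are called TPM-like levels, and fold changes are computed on level plus 1. TPM values are abundances scaled for gene length and library total, and that unit was inferred from the values. The product is the siMYCN/miRCon level times the siCon/let-7a level over the siCon/miRCon level. CHGB was 2.82-fold above the product, SCG5 2.17-fold and CHGA 1.92-fold, while PCSK1N was 1.42-fold above it and VGF, SCG2 and SCG3 between 1.08-fold and 1.22-fold. Of the 7 members that passed the filter of a mean level of at least 5, 3 lay at least 1.5-fold above the product and 0 below it, where 4.6% and 5.43% of the 9324 tested genes did. These are the values by which the genes were chosen, so nothing is read from the count. PCSK1, CPE and PCSK2 did not pass the filter, PCSK1 with a mean level of 4.42.

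**Figure D1:**
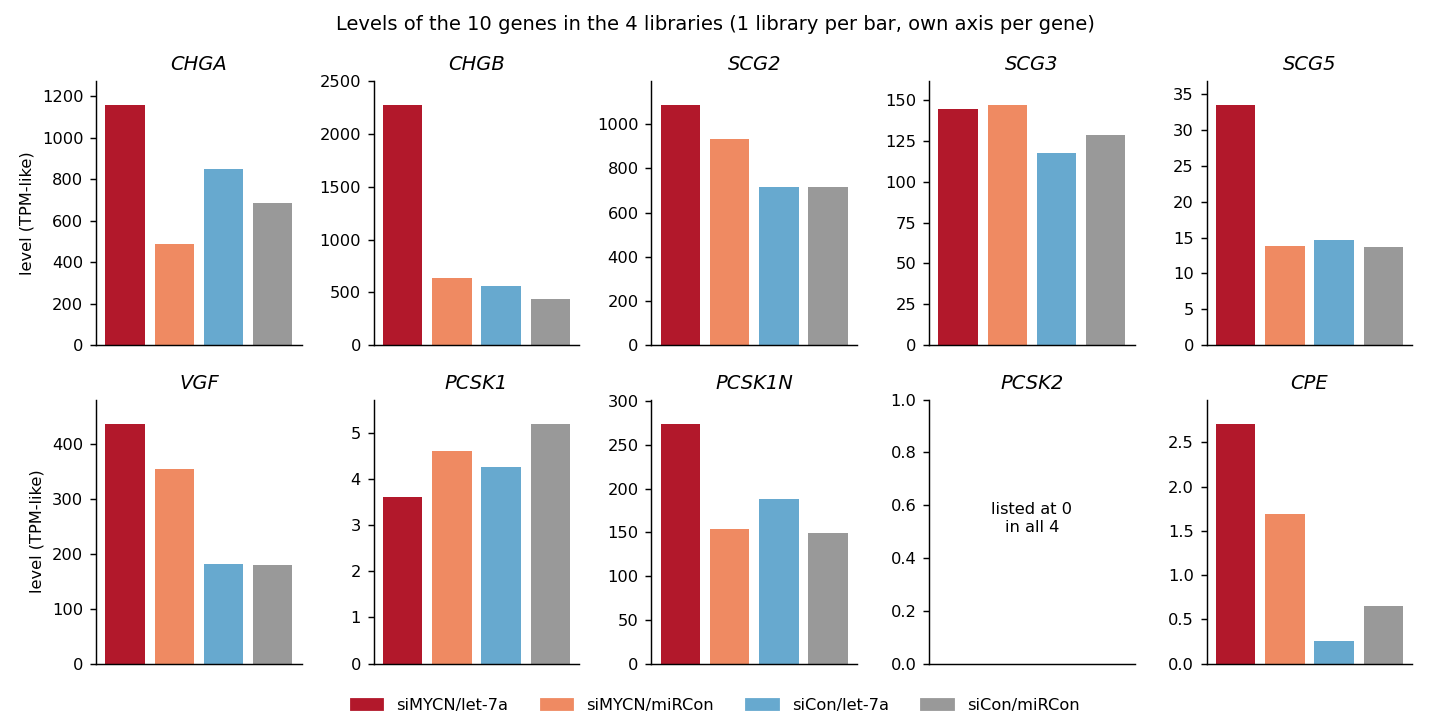
Level of each of the 10 genes (TPM-like, each with its own axis from 0) in the siMYCN/let-7a, siMYCN/miRCon, siCon/let-7a and siCon/miRCon libraries, with 1 library per bar. CHGB and SCG5 stand out in the siMYCN/let-7a library, at 2275 and 33.5, and PCSK2 is listed at 0. VGF and SCG2 are higher in both siMYCN libraries than in both siCon libraries, as are CHGB, SCG3 and CPE.

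CHGB, chromogranin B, is a major matrix protein of catecholamine granules. Its level was 2275 in siMYCN/let-7a, 633 in siMYCN/miRCon, 557 in siCon/let-7a and 438 in siCon/miRCon. The library with both treatments stood alone, with the other 3 well below it, between 438 and 633. Against siCon/miRCon, the fold change was 5.19 with both treatments, 1.45 with siMYCN alone and 1.27 with let-7a alone, and the product of the single effects was a level of 806. Put as the effect of each treatment, let-7a changed CHGB 3.59-fold with siMYCN and 1.27-fold with siCon, and siMYCN changed it 4.08-fold with let-7a and 1.45-fold with miRCon. CHGB was the gene ranked 25 by level in siMYCN/let-7a, against 103 in siMYCN/miRCon, 118 in siCon/let-7a and 155 in siCon/miRCon. Among the 5672 genes with a mean of at least 20, none other departed as far above the product (1 of 5672). The members were chosen by these same values, so nothing is read from this rank. On GRCh38, the build of all gene positions here, the gene (ENSG00000089199.9) spans chr20:5911430-5925361, plus strand.

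CHGA, chromogranin A, drives granule formation and is the precursor of catestatin and vasostatins. Its level was 1157 in siMYCN/let-7a, 489 in siMYCN/miRCon, 847 in siCon/let-7a and 687 in siCon/miRCon. Like CHGB it was highest with both treatments, but it was lowest with siMYCN alone. The siMYCN effect therefore had opposite signs with the mimics, a log2 fold change of 0.45 with let-7a and -0.49 with miRCon. The let-7a effect was a log2 fold change of 1.24 with siMYCN and 0.30 with siCon, and the product of the single effects was 603. At a mean of at least 20, 15 of 5672 genes departed as far or further above the product, CHGA included, a rank on the values by which the members were chosen. The gene (ENSG00000100604.12) spans chr14:92923080-92935293, plus strand.

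SCG5 encodes the neuroendocrine partner protein that PCSK2 needs to mature. Its level was 33.5 in siMYCN/let-7a, 13.9 in siMYCN/miRCon, 14.7 in siCon/let-7a and 13.7 in siCon/miRCon. Neither treatment alone moved it by more than 1.07-fold, and both together gave 2.35-fold. SCG5 was the lowest-expressed of the 7 members above the filter, in a range where large departures are more frequent across genes. The shares at least 1.5-fold above the product were 4.6% of all tested genes, 1.8% of those with a mean of at least 20 and 0.663% of the 1206 with a mean of at least 100. The shares as far below it were 5.43%, 2.87% and 0.498% at the same minimums. The gene (ENSG00000166922.8) spans chr15:32641676-32697098, plus strand, and its exons overlap those of 1 annotated gene on the opposite strand. No use of strand in the counting is given in the sources used here, so reads from the overlap cannot be assigned.

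PCSK1N encodes proSAAS, a granin-like protein and inhibitor of PCSK1. Its level was 274 in siMYCN/let-7a, 154 in siMYCN/miRCon, 188 in siCon/let-7a and 149 in siCon/miRCon. It was slightly higher with let-7a alone, nearly the same with siMYCN alone and highest with both, at 1.83-fold over siCon/miRCon against a product of 193. Over the 3 log2 changes against siCon/miRCon, PCSK1N and SCG5 were the most alike of the 7 members, at a distance of 0.43, and CHGB and SCG3 the least alike, at 2.28. PCSK1N (ENSG00000102109.8) spans chrX:48831094-48835633, minus strand.

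**Figure D2:**
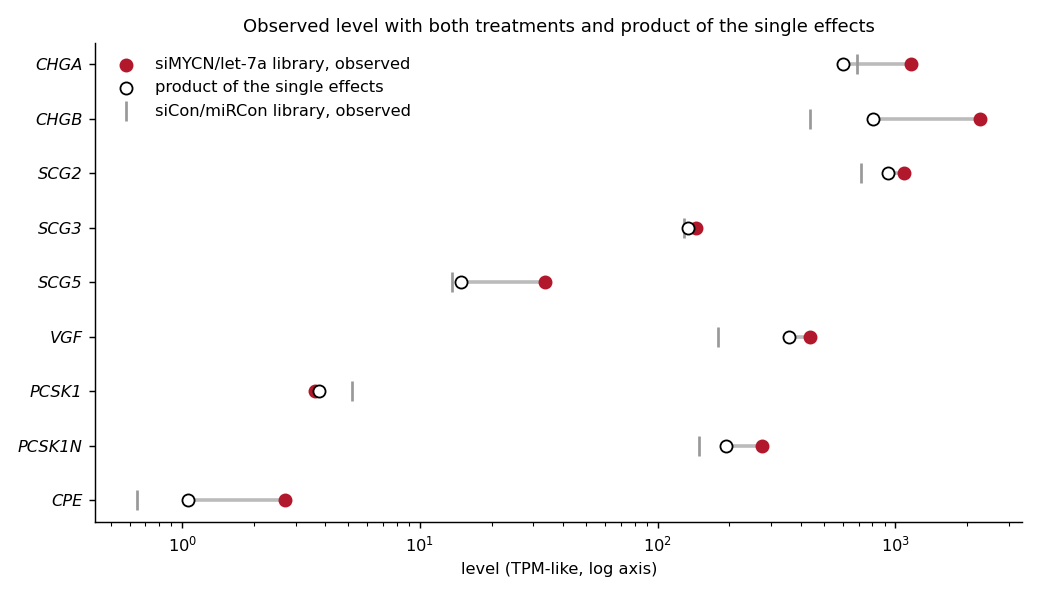
Observed siMYCN/let-7a level (filled), the level given by the product of the single effects (open) and the siCon/miRCon level (tick) of the 9 genes with a value above 0, on a log axis of TPM-like levels. The filled and open points lie far apart for CHGB (2275 and 806), CHGA (1157 and 603) and SCG5 (33.5 and 14.9), and close together for SCG3, VGF, SCG2 and PCSK1. They also lie far apart for CPE (2.71 and 1.06), at levels below the filter, and less so for PCSK1N (274 and 193).

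VGF and SCG2 followed siMYCN rather than the combination. VGF is a neurotrophin-induced granin that yields several neuropeptides. Its level was 437 in siMYCN/let-7a, 353 in siMYCN/miRCon, 181 in siCon/let-7a and 179 in siCon/miRCon. The 2 siMYCN libraries did not overlap the 2 siCon libraries, and the siMYCN fold change was 2.40 with let-7a and 1.97 with miRCon. With let-7a in place of miRCon, VGF differed by 1.24-fold with siMYCN and 1.01-fold with siCon. VGF (ENSG00000128564.6) spans chr7:101162509-101165593, minus strand.

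SCG2, secretogranin II, is the precursor of secretoneurin. Its level was 1086 in siMYCN/let-7a, 930 in siMYCN/miRCon, 717 in siCon/let-7a and 717 in siCon/miRCon. Both siMYCN libraries were above both siCon libraries, by 1.51-fold with let-7a and 1.30-fold with miRCon, and the siCon libraries were alike. This order of the libraries, shared with VGF, was also that of CHGB, SCG3 and CPE. The share of all tested genes with it was not computed, so nothing is read from it. VGF was the only member of the 7 at least 1.5-fold higher with siMYCN under both mimics (1 of 7), as were 2.85% of tested genes, and 0 of 7 were lower in both, where 1.61% were. SCG2 missed that fold size with miRCon. With let-7a, 4 of 7 were at least 1.5-fold higher with siMYCN (CHGB, SCG2, SCG5 and VGF) and 0 lower, where 7.49% and 5.14% of tested genes were. With miRCon, 1 of 7 was higher (VGF) and 0 lower, where 6.64% and 4.14% were. SCG2 (ENSG00000171951.4) spans chr2:223596940-223602503, minus strand.

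SCG3, secretogranin III, anchors CHGA to cholesterol-rich granule membranes. Its level was 145 in siMYCN/let-7a, 147 in siMYCN/miRCon, 118 in siCon/let-7a and 129 in siCon/miRCon. It was the steadiest of the 7 members, with all 4 libraries within a narrow range and a departure from the product of 1.08-fold. In no member did let-7a give a change of at least 1.5-fold in both siRNA states (0 of 7 higher and 0 of 7 lower, against 0.204% and 0.257% of tested genes). With siMYCN, 4 of 7 were at least 1.5-fold higher with let-7a than with miRCon (CHGA, CHGB, SCG5 and PCSK1N), and 0 lower, where 2.28% and 3.44% of tested genes were. With siCon, 0 of 7 were higher and 0 lower, where 1.78% and 2.02% were. SCG3 (ENSG00000104112.8) spans chr15:51681353-51721031, plus strand.

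The processing enzymes themselves were low. PCSK1, the convertase of the early secretory granule, had 3.61 in siMYCN/let-7a, 4.61 in siMYCN/miRCon, 4.25 in siCon/let-7a and 5.19 in siCon/miRCon. It was lowest with both treatments and highest with neither, within a narrow range, and its level with both treatments was 0.97-fold the product. CPE, which removes basic residues left by the convertases, had 2.71 in siMYCN/let-7a, 1.69 in siMYCN/miRCon, 0.259 in siCon/let-7a and 0.647 in siCon/miRCon. Both siMYCN libraries were above both siCon libraries, but at levels where the log2 departure from the product ranged from 0.31 at a pseudocount of 5 to 1.71 at a pseudocount of 0.1. PCSK1 (ENSG00000175426.10) spans chr5:96390415-96434143, minus strand, and CPE (ENSG00000109472.13) chr4:165361194-165498320, plus strand. PCSK2, the convertase that SCG5 assists, at chr20:17226107-17484578, plus strand, was listed at 0 in all 4 libraries. A listed 0 need not mean no transcript, since RPS18, a ribosomal protein gene of every cell, was at 0.326 or less in these libraries.

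Summed over the 10 genes, the level was 5414 in siMYCN/let-7a, 2727 in siMYCN/miRCon, 2627 in siCon/let-7a and 2318 in siCon/miRCon. That was 0.63% of the library total in siMYCN/let-7a, 0.319% in siMYCN/miRCon, 0.305% in siCon/let-7a and 0.27% in siCon/miRCon. Without CHGB the sum was 3139 in siMYCN/let-7a, 2093 in siMYCN/miRCon, 2070 in siCon/let-7a and 1880 in siCon/miRCon. The sum of all 10 was 1.75-fold the product of the single effects, and 1.36-fold without CHGB. Against siCon/miRCon, 6 of the 7 members above the filter were at least 1.5-fold higher in siMYCN/let-7a and 0 lower, where 7.5% and 5.97% of tested genes were. The exception was SCG3, and SCG2, at 1.51-fold, was under 1.5-fold when values were rescaled by median ratios or without mitochondrial transcripts. The median log2 fold change was 0.87 over these 7 members and 0.028 over all tested genes. The members were chosen on these levels, so nothing is read from the count or the medians.

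**Figure D3:**
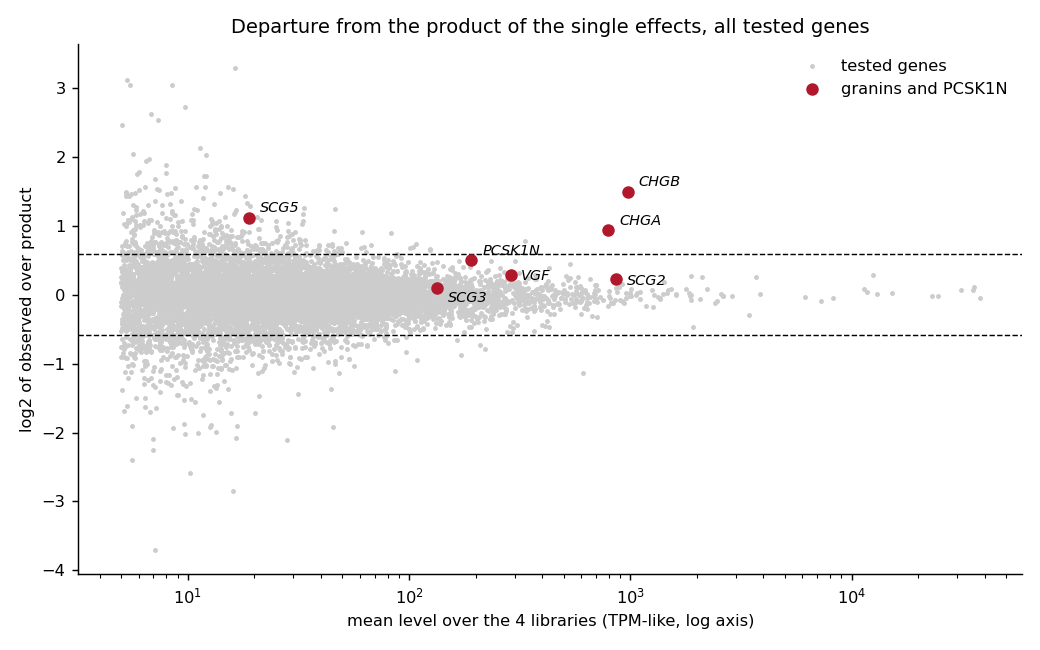
Log2 of the observed siMYCN/let-7a level over the product of the single effects against the mean level (TPM-like, log axis) for all 9324 tested genes in grey and the 7 members above the filter in red, with dashed lines at 1.5-fold. The grey points spread widely at low levels and narrow at high ones, where CHGB (1.5) and CHGA (0.94) lie above them and SCG2 (0.22) lies among them.

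The departure from the product rests on 1 library of each kind. Among the 1206 genes with a mean of at least 100, 8 lay at least 1.5-fold above the product and 6 below, CHGA and CHGB among the 8. This minimum was chosen after the values were seen, and the members by these same values, so nothing is read from the count. In bulk RNA, fewer cells of a type and less RNA per cell cannot be told apart.

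The genes closest to each member with a mean of at least 20, which leaves out SCG5, over the 3 log2 changes against siCon/miRCon, among non-members with a mean of at least 20 in these 4 libraries, were PDIA2, POLR2F and ARMC9 for CHGA, at distances of 0.18 to 0.35. For CHGB they were CHODL, IGFBP7 and C7, at 0.49 to 0.88, so no gene matched it closely. IGFBP7, a secreted binding protein, was at 244 in siMYCN/let-7a, 116 in siMYCN/miRCon, 79.8 in siCon/let-7a and 60.2 in siCon/miRCon. VGF was nearest to H3F3A, MBTPS1 and RPL34, and PCSK1N to POLR2F, MFSD6 and HS6ST3. Those nearest to SCG2 were CLMP, C12orf76 and RASSF3, and those nearest to SCG3 were POLR2M, TM9SF2 and BCL7B, all 6 within 0.036.

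Of the other processing enzymes, 12 of 18 passed the filter. At least 1.5-fold above or below the product were 0 and 0 of 12, where 4.6% and 5.43% of all tested genes were, and the median log2 departure was 0.077, against -0.015 over all tested genes. With siMYCN under both mimics, 2 of 12 were at least 1.5-fold higher and 0 lower, where 2.85% and 1.61% of tested genes were. MBTPS1, the Golgi protease that activates sterol regulatory proteins, had 93.3 in siMYCN/let-7a, 74.6 in siMYCN/miRCon, 42.5 in siCon/let-7a and 39.8 in siCon/miRCon. PAM, which amidates peptide ends, had 33.5 in siMYCN/let-7a, 28.8 in siMYCN/miRCon, 18.7 in siCon/let-7a and 18.1 in siCon/miRCon. Both thus followed the VGF pattern, with the siMYCN libraries above the siCon libraries. CPD, a carboxypeptidase of the trans-Golgi related to CPE, was lower with siMYCN, at 27.3 in siMYCN/let-7a and 22.8 in siMYCN/miRCon, against 36.9 in siCon/let-7a and 43.3 in siCon/miRCon. The convertase PCSK7 had log2 siMYCN effects of 0.81 with let-7a and 0.35 with miRCon, and the lysosomal proteases CTSB and CTSL had 0.63 and 0.53 (CTSB) and -0.69 and -0.17 (CTSL). QPCTL, a Golgi enzyme that forms pyroglutamate ends, had a log2 departure of -0.53.

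**Figure D4:**
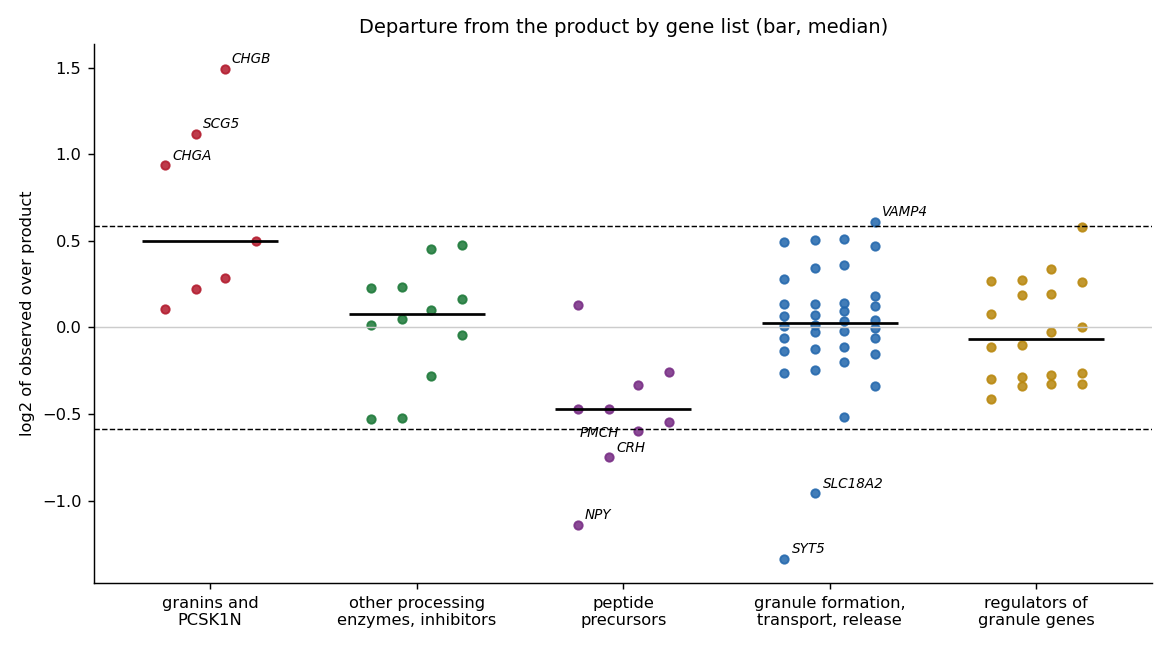
Log2 of the observed siMYCN/let-7a level over the product for each gene above the filter, by list, with the list median as a bar and dashed lines at 1.5-fold. The enzyme, granule and regulator lists centre near 0, whereas the 7 members all lie above 0 (median 0.50) and 8 of the 9 peptide precursors below it (median -0.47). Of all tested genes, 47.6% lie above 0. The members were chosen by these same values, so nothing is read from the contrast between lists.

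The peptide precursors include substrates of the convertases. Of 46 listed, 18 were listed at 0 in every library and 9 passed the filter. Of these 9, 0 were at least 1.5-fold above the product and 3 below it, where 4.6% and 5.43% of tested genes were. A departure below 0 was found in 8 of the 9, with GAL, at a log2 departure of 0.13, the exception. Over all tested genes, 47.6% had a departure above 0. NPY, the sympathetic neuropeptide Y, had 514 in siMYCN/let-7a, 1132 in siMYCN/miRCon, 399 in siCon/let-7a and 398 in siCon/miRCon. It was highest with siMYCN alone, and the let-7a effect was a log2 fold change of -1.14 with siMYCN and 0.002 with siCon. CRH, corticotropin-releasing hormone, had 68.4 in siMYCN/let-7a, 88.3 in siMYCN/miRCon, 58.2 in siCon/let-7a and 44.3 in siCon/miRCon, a log2 departure of -0.75. PMCH, the precursor of melanin-concentrating hormone, had a log2 departure of -0.60 at levels of 4.05 to 6.90. CARTPT, an appetite-regulating neuropeptide, had 65.0 in siMYCN/let-7a and 66.6 in siMYCN/miRCon, against 42.1 in siCon/let-7a and 36.0 in siCon/miRCon. GAL, galanin, was lower with siMYCN, at 86.1 in siMYCN/let-7a and 66.7 in siMYCN/miRCon, against 141 in siCon/let-7a and 120 in siCon/miRCon. NMB, neuromedin B, and ADM, adrenomedullin, had log2 departures of -0.55 and -0.47.

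Genes of granule formation, cargo transport and release were measured in 54 rows, of which 36 passed the filter. Above the product by at least 1.5-fold was 1 (VAMP4) and below it 2 (SYT5 and SLC18A2) of 36, where 4.6% and 5.43% of tested genes were, with a median log2 departure of 0.028. VAMP4, a fusion protein that is removed as granules mature, had 20.1 in siMYCN/let-7a, 12.4 in siMYCN/miRCon, 10.3 in siCon/let-7a and 9.98 in siCon/miRCon, a pattern like that of SCG5. With siMYCN under both mimics, 3 of 36 were at least 1.5-fold higher and 2 lower, where 2.85% and 1.61% of tested genes were. The higher ones were synaptotagmins, the calcium sensors and regulators of vesicle fusion: SYT4, SYT5 and SYT9. The log2 siMYCN effect with let-7a and with miRCon was 0.93 and 1.27 for SYT4, 0.67 and 2.01 for SYT5, and 1.20 and 1.72 for SYT9. These 3 were low: SYT4 had a mean level of 18.6, and none of the 3 reached a mean of at least 20. The lower ones were DOC2B, named after its values were seen, and SLC18A2, the vesicular monoamine transporter. SLC18A2 had 1.80 in siMYCN/let-7a, 4.13 in siMYCN/miRCon, 10.0 in siCon/let-7a and 9.44 in siCon/miRCon, so it was lowest where CHGB was highest.

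**Figure D5:**
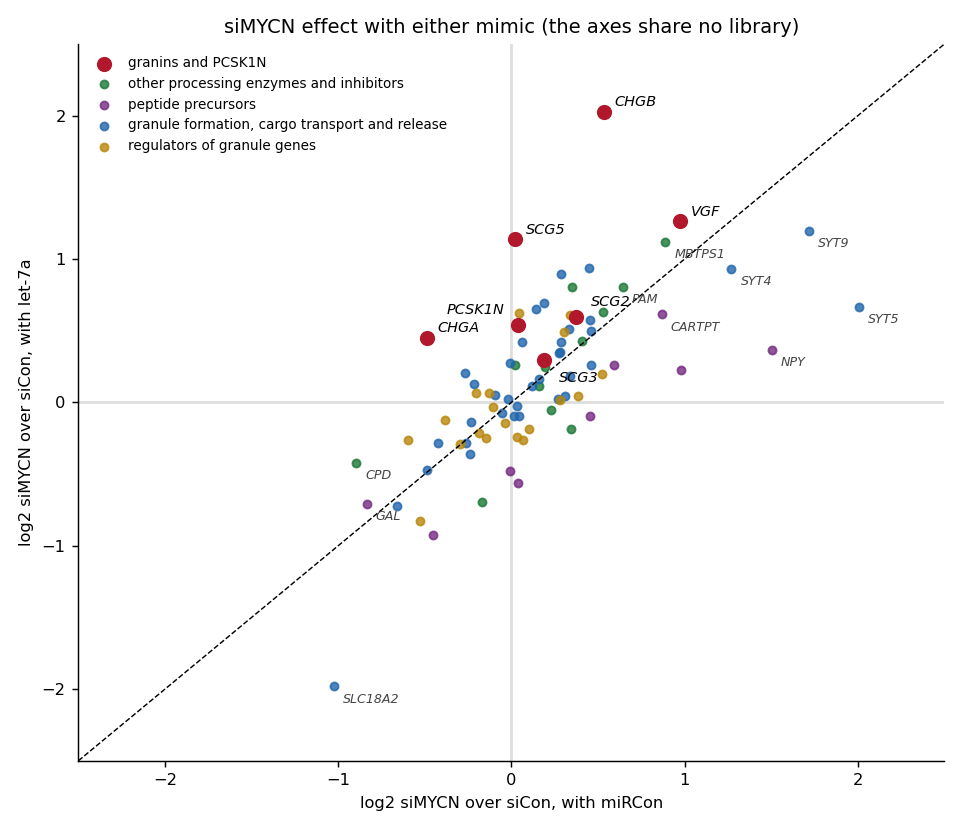
Log2 siMYCN effect with let-7a against that with miRCon for the 7 members and 4 related gene lists (1 regulator not shown), with the line of equal effects dashed; the axes share no library. VGF and SCG2 lie near the line, CHGB (2.03 and 0.53), SCG5 (1.14 and 0.019) and CHGA (0.45 and -0.49) lie above it, and NPY (0.37 and 1.5) lies below it.

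Among regulators of granule genes, 20 of 25 passed the filter, 0 of 20 departed from the product by at least 1.5-fold upward and 0 downward, where 4.6% and 5.43% of tested genes did, and the median log2 departure was -0.066. EGR1, an immediate early transcription factor, came closest, with 48.0 in siMYCN/let-7a, 22.1 in siMYCN/miRCon, 30.8 in siCon/let-7a and 21.4 in siCon/miRCon. Its log2 departure was 0.58, and like CHGB and CHGA it was highest with both treatments. With siMYCN under both mimics, 0 of 20 were at least 1.5-fold higher, where 2.85% of tested genes were. The log2 siMYCN effects with let-7a and with miRCon were 0.61 and 0.34 for GATA2, -0.83 and -0.53 for ISL1 and 0.49 and 0.30 for TCF4. The corepressor RCOR2 had a log2 departure of -0.34 and the splicing regulator PTBP2 one of 0.34. REST, the repressor of many neuroendocrine genes, was named after its values were seen and did not pass the filter, at 3.71 in siMYCN/let-7a, 5.55 in siMYCN/miRCon, 3.0 in siCon/let-7a and 3.50 in siCon/miRCon.

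As checks of the libraries, MYCN was at 1197 in siMYCN/let-7a and 1238 in siMYCN/miRCon, against 1433 in siCon/let-7a and 1449 in siCon/miRCon, with the added reading frame and the cells' own gene not separated. With siMYCN it was thus 0.84-fold under let-7a and 0.85-fold under miRCon, a small fall that did not reach the 1.5-fold size used for counting. The let-7 target LIN28B was at 55.5 in siMYCN/let-7a against 119 in siMYCN/miRCon, and at 96.5 in siCon/let-7a against 157 in siCon/miRCon. All 10 noradrenergic markers were above 0 in every library, and their summed level was between 3128 and 3582. Of 7 fibroblast markers 6 were above 0 in all libraries, with sums of 246 in siMYCN/let-7a, 298 in siMYCN/miRCon, 252 in siCon/let-7a and 275 in siCon/miRCon, and COL1A2 was at or near 0. DCN was the fibroblast marker at least 1.5-fold above the product (1 of 5 above the filter), with 35.1 in siMYCN/let-7a, 28.4 in siMYCN/miRCon, 19.1 in siCon/let-7a and 24.3 in siCon/miRCon, and the other 4 had log2 departures below 0. The 4 Schwann markers summed to 14.5 in siMYCN/let-7a and 15.1 in siMYCN/miRCon, against 9.75 in siCon/let-7a and 7.38 in siCon/miRCon. The 3 epithelial markers summed to 7.77 in siMYCN/let-7a, 3.32 in siMYCN/miRCon, 4.22 in siCon/let-7a and 3.14 in siCon/miRCon, with CDH1 listed at 0. For 4 blood markers the sums lay between 3.22 and 4.53, with HBB listed at 0. The epithelial sum and DCN were thus highest in siMYCN/let-7a, where CHGB was highest, while the fibroblast sum was lowest there. The Schwann sum, like VGF, was higher in both siMYCN libraries. Only 1 of the 4 Schwann markers and 0 of the 3 epithelial markers passed the filter, so these sums are of low levels. The part of these markers in the member results was not tested. Mitochondrial transcripts took 29.3% and 28.4% of the total in the siMYCN libraries, against 32.1% and 31.7% in the siCon libraries. Depth per library is unknown, because TPM-like values keep none.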

How the data were processed

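PolyA RNA was sequenced in 4 libraries, 1 per group as labelled. The deposited table holds natural log values, and their base and unit were settled from the data, as no source used here states them: exp(x) - 1 sums to between 855811 and 862049 per library. Per the submitters' processing notes, the tools included HISAT 0.1.6 and Salmon 0.3.2 and the build was GRCh38, and neither filters nor an annotation are given in the sources used here. Rows for ERCC spike-ins (92) and vector sequences (11) were set apart. Log2 fold changes used level plus a pseudocount of 1, and genes with a mean of at least 5 were called tested (9324). With 1 library per group, genes were counted at 1.5-fold and no p-value was computed. The calculation was run on simulated data with planted departures and little noise. That run checks the arithmetic and says nothing of the noise in these libraries.

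The members and lists were chosen with earlier results of these data known. Named genes were all members, up to 4 per list by departure and 4 by the smaller siMYCN effect, and the 3 nearest genes per member. A gene that this rule named is not reported here. Sequences came from RefSeq (GRCh38.p14), 3′ UTRs and coordinates from GENCODE 29. Alternatives were other pseudocounts, filters, scalings and fold sizes, and a sum in place of the product. Python 3.11.15, pandas 2.3.3, NumPy 2.4.6 and matplotlib 3.10.9 were used.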

Additional observations from a re-analysis of the deposited data

Results flagged for a closer look

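For 3 genes, an effect had opposite signs in the states compared, each of at least 0.32 on the log2 scale. The difference between the effects was not tested in any of them, since each effect comes from 1 pair of libraries. For CHGA, the log2 siMYCN effect was 0.45 with let-7a and -0.49 with miRCon. For CPE, at levels of 2.71 or less, the log2 let-7a effect was 0.46 with siMYCN and -0.39 with siCon. For CRH, the log2 let-7a effect was -0.36 with siMYCN and 0.39 with siCon.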

How the results depend on the processing

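No paired analysis was possible because each group holds 1 library, and for the same reason no library could be left out. The departures of CHGB (log2 1.49 to 1.60), CHGA (0.83 to 0.96) and SCG5 (0.95 to 1.16) kept their direction under the pseudocounts, scalings and the sum of differences. Of 225 recomputed member values, 205 moved by at most 0.1, and 20 by more. The sign changed in 5, all under rescaling and all of values within 0.0483 of 0: the siMYCN effects of PCSK1N and SCG5 with miRCon and the let-7a effect of SCG3 with siMYCN. Genes departing from the product at least 1.5-fold numbered 429 higher and 506 lower. They were 235 and 274 at a pseudocount of 5, 1142 and 1184 with no filter, 102 and 163 at a mean of at least 20, and 8 and 6 at a mean of at least 100, a minimum chosen after seeing the data. At a smaller fold size (log2 of 0.32) they were 1252 and 1475, and at a fold size of 2 they were 108 and 115. Members higher in siMYCN/let-7a than siCon/miRCon numbered 6, and 3 at a fold size of 2. Members higher with siMYCN under both mimics numbered 1, with 2 at no filter, 3 at the smaller fold size and 0 at a fold size of 2. Members higher with let-7a in both states numbered 0, and 2 at the smaller fold size. List genes higher with siMYCN under both mimics numbered 6, with 3 at a pseudocount of 5, 3 at a mean of at least 20, 0 at a mean of at least 100, 15 at the smaller fold size and 1 at a fold size of 2. The lower ones numbered 4, with 2 at a mean of at least 20, 1 at a mean of at least 100, 8 at the smaller fold size and 2 at a fold size of 2. At the main settings, the list genes tested were 12 other processing enzymes, 9 peptide precursors, 36 granule genes and 20 regulators. The shares of all tested genes set beside the member and list counts were computed at the main settings only. Nothing is read from those counts at the other settings. Depth is unknown, so counting error could not be given.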

Other observations

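Among the peptide precursors above the filter, IGF2 and VIP were described after their values were seen. IGF2, a growth factor cut from a larger precursor, was at 1456 in siMYCN/let-7a, 2103 in siMYCN/miRCon, 2030 in siCon/let-7a and 2116 in siCon/miRCon. It was lower only in the library with both treatments, the library in which CHGB was highest. VIP, vasoactive intestinal peptide, was at 222 in siMYCN/let-7a and 284 in siMYCN/miRCon, against 185 in siCon/let-7a and 188 in siCon/miRCon. Their log2 departures from the product were -0.47 and -0.33.

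A pair of granule membrane proteins were also picked after their values were seen. PTPRN, a receptor-like phosphatase of granule membranes, was at 45.8 in siMYCN/let-7a and 42.2 in siMYCN/miRCon, against 32.1 in siCon/let-7a and 30.4 in siCon/miRCon, a log2 departure of 0.040. CYB561, which passes electrons into the granule, was at 151 in siMYCN/let-7a and 131 in siMYCN/miRCon, against 105 in siCon/let-7a and 104 in siCon/miRCon, a log2 departure of 0.18.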
